A study of Mus musculus with 6 samples.

Results

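The 38 genes described here encode glutathione S-transferases, the enzymes that make, recycle and use glutathione, and genes regulated by the transcription factor NRF2. They were listed by symbol and matched by Ensembl identifier, and all 38 were found among the 37991 genes of the count tables. Of these, 37 had enough reads to be tested, while Mgst2 had 3 to 9 reads per library and was not.

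Glutathione is a tripeptide that hepatocytes make in large amounts. Glutathione S-transferases (GSTs) couple it to reactive compounds so that they can be exported, and the classes of the family (mu, alpha, pi, theta, omega, kappa, zeta and the membrane-bound MGSTs) differ in substrate and location. NRF2, encoded by Nfe2l2, is held down by KEAP1, which marks it for degradation. Oxidants and electrophiles release it, and it then binds the antioxidant response element beside many detoxification genes.

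The study measured liver RNA of mice that had 27 weeks of high-fat diet and were 35 weeks old at death. Control livers came from mice with the Alb-Cre transgene (TgAlbCre) alone, in which Cre recombinase is made under the albumin promoter, that is, mainly in hepatocytes. KAP1-deleted livers came from TgAlbCreKap1lox mice, in which the same Cre inactivates Trim28, the gene of the co-repressor KAP1. Tumours were labelled as primary tumour tissue of TgAlbCreKap1lox mice, with no tumour type given. Every group was thus on the diet and carried Alb-Cre. Each group held 2 libraries, and by the mouse codes tumour 1 and KAP1-deleted liver 1 came from 1 mouse and tumour 2 and KAP1-deleted liver 2 from another. The libraries are of whole tissue, while the deletion is directed to cells in which the albumin promoter drives Cre, not to every cell.

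Gene counts per library were between 39723997 and 62178752. Trim28 stood at 32.5 and 35.9 CPM (reads scaled to library size with TMM factors) in control livers and at 4.59 to 6.02 CPM in the other 4 libraries. Markers of hepatocytes were present in every library (6 of 7 listed genes found, summed level 70845 to 90303 CPM in the 4 livers, 26968 and 44283 CPM in tumours 1 and 2). Most of that sum was Alb (53805 to 74525 CPM in livers, 18162 and 34887 CPM in tumours), which was not called against KAP1-deleted liver (edgeR adjusted p = 0.126). Of the 6, 1 was called lower in tumours against KAP1-deleted liver and 2 against control liver. Against KAP1-deleted liver, 3 of 5 pericentral hepatocyte markers were called higher in tumours (6276 to 8845 CPM summed in livers, 19717 and 16984 CPM in tumours). For periportal markers 5 of 6 were called lower (7241 to 12316 against 1129 and 1698 CPM), and for macrophage markers 5 of 8 (458.3 to 500.4 against 208.8 and 244.7 CPM). For proliferation markers 5 of 6 were called higher (10.02 to 14.05 against 51.82 and 79.37 CPM). No marker was at 0 in all libraries, and the part of these cells in the results below was not tested. In bulk tissue, fewer cells of a type and less RNA per cell cannot be told apart. Control liver 1 stood apart from control liver 2 in the genes described here, being lower in 32 of 37 with a median ratio of 0.599 (0.994 over all genes tested). Leaving out control liver 1 or 2 changed several calls, which are given beside the genes.

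The promoters of 4 genes that carry the tumour result are shown first. Gstm3 and Gstm2 had the largest rises among called members, Srxn1 was the NRF2 target outside the GST family called higher, and Ugdh the one called lower. Each window runs from 250 bases before to 50 bases after a RefSeq start site on build GRCm38.p6, written 5′ to 3′ on the gene's strand. The capitals mark the letters TGACNNNGC, taken here as the core of the antioxidant response element, on either strand. Forms with other letters at the fixed positions were not searched for and are not in capitals.
Gstm3, minus strand, chr3:107969125-107969424: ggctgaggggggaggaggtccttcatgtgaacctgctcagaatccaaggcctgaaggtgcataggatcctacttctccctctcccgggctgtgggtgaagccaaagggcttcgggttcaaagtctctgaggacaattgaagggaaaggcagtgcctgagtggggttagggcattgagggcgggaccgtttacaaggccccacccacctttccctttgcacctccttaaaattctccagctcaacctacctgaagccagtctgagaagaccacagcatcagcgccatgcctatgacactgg
Gstm2, minus strand, chr3:107986371-107986670: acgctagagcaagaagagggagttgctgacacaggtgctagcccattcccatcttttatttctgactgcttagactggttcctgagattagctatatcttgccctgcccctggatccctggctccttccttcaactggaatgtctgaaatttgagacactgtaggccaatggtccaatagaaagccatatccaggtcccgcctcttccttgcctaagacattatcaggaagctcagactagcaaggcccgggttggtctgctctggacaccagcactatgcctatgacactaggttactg
Srxn1, plus strand, chr2:152105274-152105573: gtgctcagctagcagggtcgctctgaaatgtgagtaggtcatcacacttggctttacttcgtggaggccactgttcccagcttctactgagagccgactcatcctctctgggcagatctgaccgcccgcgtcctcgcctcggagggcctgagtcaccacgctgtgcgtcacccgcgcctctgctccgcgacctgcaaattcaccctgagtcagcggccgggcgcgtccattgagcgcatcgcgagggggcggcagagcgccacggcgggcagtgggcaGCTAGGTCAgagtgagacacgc
Ugdh, minus strand, chr5:65435793-65436092: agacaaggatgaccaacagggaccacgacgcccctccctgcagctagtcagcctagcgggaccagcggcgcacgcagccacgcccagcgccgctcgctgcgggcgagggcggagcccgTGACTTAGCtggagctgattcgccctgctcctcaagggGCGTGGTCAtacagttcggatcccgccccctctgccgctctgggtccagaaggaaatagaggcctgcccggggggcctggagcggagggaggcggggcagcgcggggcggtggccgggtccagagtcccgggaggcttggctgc

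The Gstm3 and Gstm2 windows hold no such core, the Srxn1 window holds 1, in bases 28 to 36 after the start on the opposite strand, and the Ugdh window holds 2. Across members, 33 had a window in the RefSeq table, and 9 of them (27.3%) had the core in at least 1 window. Among all 27025 genes with windows of this length the share was 14%. The 9 were Gstm5, Gstm7, Gsta3, Mgst1, Gclm, Nfe2l2, Txnrd1, Srxn1 and Ugdh. A match is letters in a window and was not tested for binding, and the windows do not cover distal elements. Because only these letters were searched for, a window without a match, or with a match elsewhere, may hold another form of the element.

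**Figure D1:**
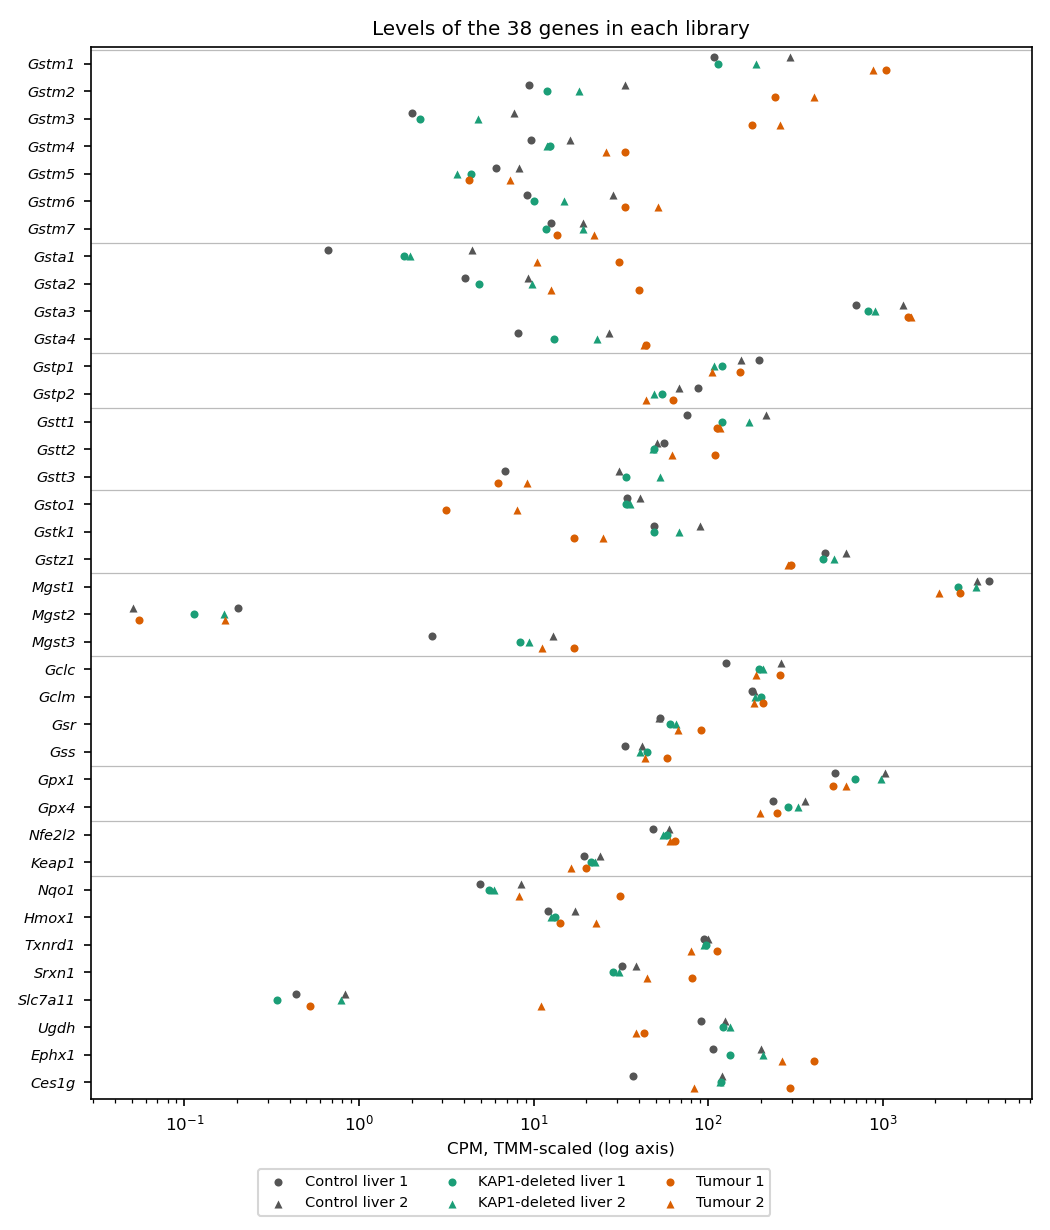
Level of each of the 38 genes (rows, by role) in each library, as TMM-scaled CPM on a log axis; colours are the 3 groups and symbols the replicate, which for KAP1-deleted liver and tumour is the mouse. Gstm2 and Gstm3 lie at 178 to 405 CPM in tumours and at or below 33.5 CPM in every liver, while Nfe2l2, Keap1 and Gclm lie close together in all 6 libraries.

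KAP1-deleted and control livers were compared to ask how liver outside tumours differed between mice with and without the deletion. Both KAP1-deleted livers came from the mice that gave the tumours, and no control mouse gave a tumour library. The deletion and the bearing of a tumour therefore cannot be told apart here. No member passed the test (edgeR's quasi-likelihood test, Benjamini-Hochberg adjusted p below 0.05 over all genes), with 0 of 37 higher and 0 lower. Over all 17558 genes 0.239% were called higher and 0.0968% lower. An unadjusted p under 0.05 was found for 3 members (8.11%, against 5.44% of all genes), and DESeq2 and limma-voom called 0 members in either direction. The median log2 fold change of the 37 was -0.10, against 0.00 over all genes. It was -0.38 without control liver 1 and 0.30 without control liver 2, so its sign depended on which control was kept. In KAP1-deleted livers 3 members lay above both controls (8.11%, against 16.7% of all genes) and 6 below both (16.2%, against 14.6%).

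The 3 members with a low unadjusted p were Gstm5, Gstp1 and Gstp2, all lower in KAP1-deleted livers. Gstp1, the main pi-class enzyme of mouse liver, stood at 194 and 155 CPM (control livers 1 and 2) and at 120.3 and 108 CPM (KAP1-deleted livers 1 and 2). The groups did not overlap, and the log2 fold change was -0.61 ± 0.23 (SE; edgeR adjusted p = 0.795). Its neighbour Gstp2 had the same pattern, at 87.0 and 68.4 against 54.5 and 49.2 CPM, with a log2 fold change of -0.58 ± 0.22 (edgeR adjusted p = 0.782). Because 38.5% of the 31-base words of Gstp1 also occur in Gstp2, these may not be independent measurements. Gstm5, a mu-class gene, was at 6.12 and 8.22 CPM (control livers) and 4.41 and 3.62 CPM (KAP1-deleted livers; log2 fold change -0.84 ± 0.30, edgeR adjusted p = 0.716).

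Gstt3, a theta-class gene, had the highest log2 fold change of the comparison. It was at 6.90 and 30.98 CPM (control livers 1 and 2) and at 33.8 and 53.2 CPM (KAP1-deleted livers 1 and 2). The groups did not overlap, but the 4.49-fold gap between the controls was wider than the 2.28-fold difference of the fit (log2 fold change 1.19 ± 0.71, edgeR adjusted p = 1). Without a filter on low counts it was called higher (edgeR adjusted p = 3.7e-05) at a log2 fold change of 1.17. That call carries little weight, given the gap between the controls. No glutathione-making enzyme was called. Gclm, the modifier subunit of glutamate-cysteine ligase, was at 178 and 184 CPM (control livers) and 199 and 185 CPM in KAP1-deleted liver, with a log2 fold change of 0.09 ± 0.18 (edgeR adjusted p = 1).

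**Figure D2:**
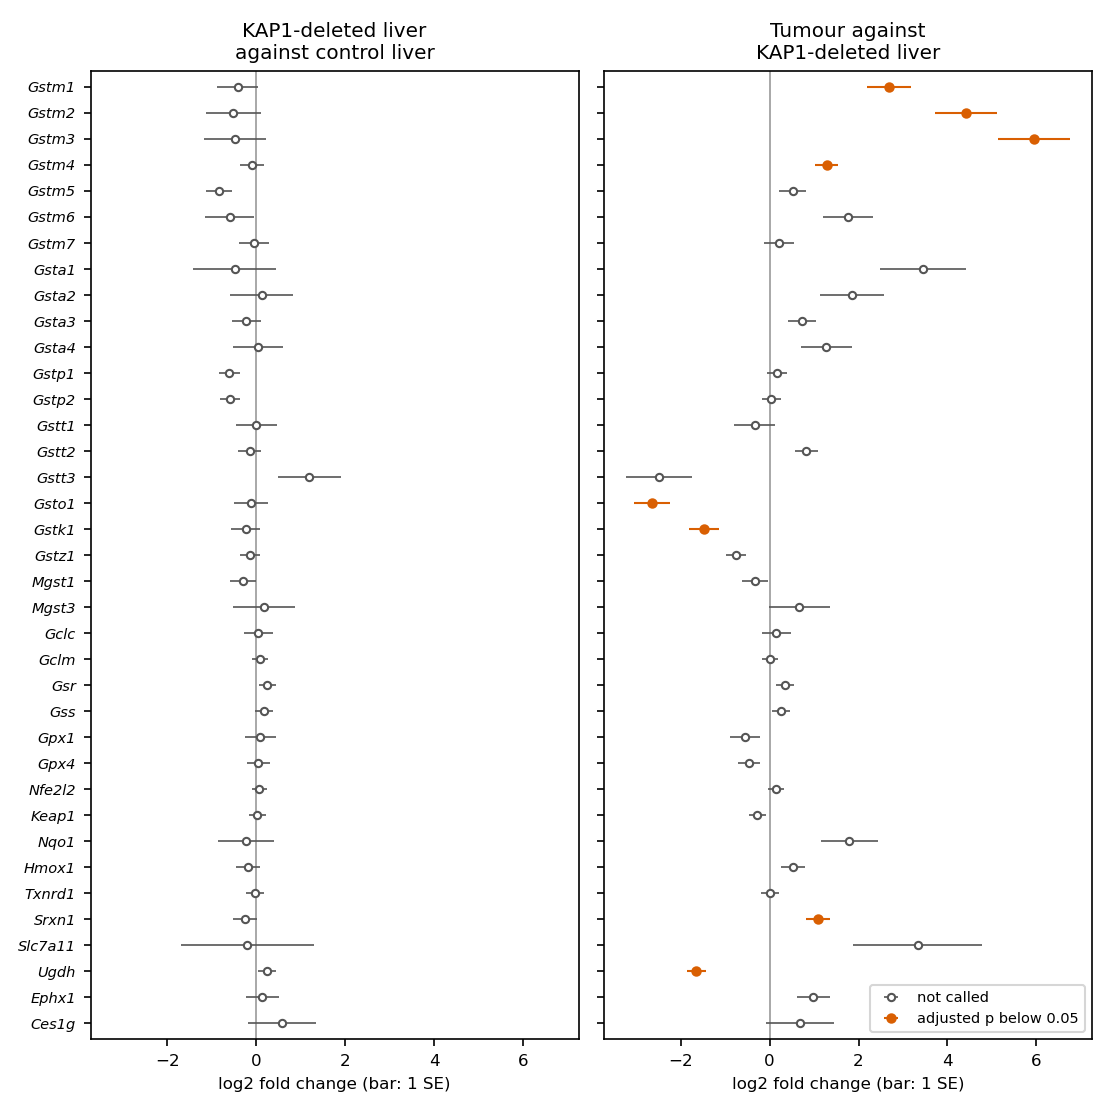
log2 fold change of the 37 tested genes (points; bars are 1 SE of the edgeR fit) in KAP1-deleted against control liver and in tumour against KAP1-deleted liver, with called genes filled. No gene is filled on the left; on the right Gstm1 to Gstm4 and Srxn1 are filled above 0 and Gsto1, Gstk1 and Ugdh below 0.

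Tumours were set against KAP1-deleted liver from the same mice. The mu-class transferases Gstm3, Gstm2, Gstm1 and Gstm4 rose, as did Srxn1, while Gsto1, Gstk1 and Ugdh fell. In all 5 of 37 members were called higher (13.5%, against 4.8% of all genes) and 3 lower (8.11%, against 6.64%). Both tumours lay above both KAP1-deleted livers for 17 members (45.9%, against 28.7% of all genes) and below both for 9 (24.3%, against 34.8%). The median log2 fold change was 0.34 (-0.03 over all genes). With library totals in place of TMM the median of all genes moved to 0.50 and that of the members to 0.89, all genes called became 4317 higher and 520 lower in place of 842 and 1165, and the members called higher became 14. With the mouse as a block 9 members were called higher and 5 lower (13.5%), against 8.95% and 13.2% of all genes, so the share called lower was near that of all genes. That fit has 1 residual degree of freedom, and the 6 it added are given with their values below.

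Tumours were also compared with control livers, which shares the tumour libraries with the comparison above. Here 4 of 37 members were called higher (10.8%, against 6.15% of all genes) and 4 lower (10.8%, against 7.76%), with a median of 0.34 (-0.02 over all genes). Both tumours lay above both controls for 15 members (40.5%, against 26.5% of all genes) and below both for 7 (18.9%, against 29.9%). Those called higher were Gstm1 to Gstm4 and those called lower Gsto1, Gstk1, Gstz1 and Ugdh. The values of both comparisons are given side by side.

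Gstm3 encodes a mu-class transferase with little transcript in these livers. It was at 2.02 and 7.72 CPM (control livers 1 and 2), at 2.25 and 4.83 CPM (KAP1-deleted livers 1 and 2), and 178 and 259 CPM (tumours 1 and 2). Both tumours were far above all 4 livers, and the gap between tumour and liver exceeded any gap between replicates. The rise was 61.5-fold over KAP1-deleted liver (log2 fold change 5.94 ± 0.81, edgeR adjusted p = 0.0143) and 44.1-fold over control liver (5.46 ± 0.79, edgeR adjusted p = 0.0139). The first call was lost without KAP1-deleted liver 1 or 2 (edgeR adjusted p 0.114 and 0.116). Of its 31-base words 62.3% occur in no other gene and 24.7% also occur in Gm8834, so some reads of relatives may be included.

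Gstm2 followed. It was at 9.44 and 33.5 CPM (control livers), 11.9 and 18.2 CPM (KAP1-deleted livers), and 239.7 and 405 CPM (tumours 1 and 2). Again no tumour overlapped a liver. It rose 21.4-fold over KAP1-deleted liver (log2 fold change 4.42 ± 0.71, edgeR adjusted p = 0.0193) and 15-fold over control liver (3.90 ± 0.69, edgeR adjusted p = 0.0217). Without KAP1-deleted liver 1 or 2 the adjusted p was 0.169 and 0.179 in the first comparison and 0.0765 and 0.078 in the second, and with the 4 libraries of the second alone it was 0.0723.

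Gstm1, the most abundant mu-class transcript of these livers, was at 108 and 294 CPM (control livers 1 and 2), 114 and 187 CPM (KAP1-deleted livers), and 1048 and 879.8 CPM (tumours). Of its 31-base words 71.2% occur in no other gene. It rose 6.4-fold over KAP1-deleted liver (log2 fold change 2.68 ± 0.49, edgeR adjusted p = 0.0178) and 4.79-fold over control liver (2.26 ± 0.48, edgeR adjusted p = 0.0251). The first call was lost without KAP1-deleted liver 1 (edgeR adjusted p = 0.0791) or tumour 1 (0.0672), the second without tumour 1 (0.0863) or tumour 2 (0.0598). Gstm4 was lower throughout, at 9.7 and 16.2 CPM (control livers), 12.3 and 12 CPM (KAP1-deleted livers), and 33.3 and 26 CPM (tumours). Its log2 fold change was 1.29 ± 0.26 over KAP1-deleted liver and 1.19 ± 0.26 over control liver (edgeR adjusted p 0.0212 and 0.0236). Leaving out KAP1-deleted liver 1 or 2 or tumour 1 ended the first call (edgeR adjusted p 0.0712, 0.0942 and 0.112), and leaving out tumour 1 or 2 the second (0.122 and 0.0508).

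The other mu-class genes were not called. Gstm6 was at 9.12 and 28.3 CPM (control livers), 9.99 and 14.9 CPM (KAP1-deleted livers), and 33.4 and 51.6 CPM (tumours). Both tumours were above all livers, yet it was not called against KAP1-deleted liver (log2 fold change 1.77 ± 0.56, edgeR adjusted p = 0.103) except with the mouse as a block (2.6e-05) and in 6 of the other 14 alternatives. Against control liver it was called without control liver 2 (2.22, edgeR adjusted p = 0.0197). Gstm7 (0.20 ± 0.34, edgeR adjusted p = 0.726) and Gstm5 (0.52 ± 0.30, edgeR adjusted p = 0.294) overlapped between tumour and KAP1-deleted liver.

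Summed over the 7 mu-class genes, transcript levels were 157 to 407.5 CPM in the 4 livers and 1550 and 1651 CPM (tumours 1 and 2). The make-up of the class differed as well. CPM per kilobase of exon adjusts for gene length, taken from GRCm38, but not for sequence that these genes share with others. On that scale Gstm1 made up 70.8% to 74.6% of the class in livers, and 68.5% and 54.5% in tumours 1 and 2. Gstm3 made up 1.49% to 2.2% in livers, and 13.1% and 18% in tumours. Gstm2 made up 5.44% to 7.45% in livers, and 13.8% and 22% in tumours. Thus Gstm2 and Gstm3 took a larger share of the class in both tumours than in any liver. The summed pericentral markers given above were likewise higher in both tumours than in any liver, and their part was not tested.

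The called mu-class genes lie next to each other. In the gene order of chromosome 3 in GRCm38.p6 the tested genes of the cluster run Gstm5, Gstm7, Gstm6, Gstm3, Gstm2, Gstm1 and Gstm4, and the 4 called genes are the last 4 in that order. The log2 fold change of tumour over KAP1-deleted liver was 0.52, 0.20, 1.77, 5.94, 4.42, 2.68 and 1.29 along it, highest at Gstm3. The nearest tested gene beyond Gstm4, Ampd2, an AMP deaminase, had a log2 fold change of 0.30 (edgeR adjusted p = 0.517), and the nearest beyond Gstm5, 4933431E20Rik, 0.74 (edgeR adjusted p = 0.143). Both were looked up after the values of the cluster were seen, and genes farther out are not described here.

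**Figure D3:**
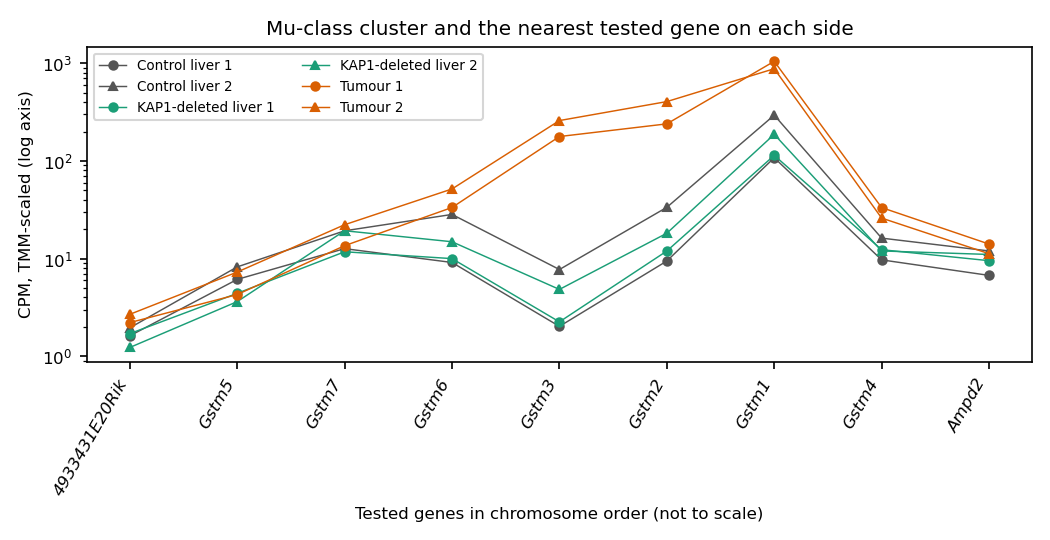
TMM-scaled CPM (log axis) of the 7 mu-class genes and the nearest tested gene on each side, in chromosome order and not to scale, with 1 line per library. The tumour lines leave the liver lines between Gstm6 and Gstm4 and come back close to them at Ampd2.

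Alpha-class transferases, which also act on products of lipid peroxidation, had higher values in tumours but no call. Gsta3, the most abundant of them, was at 701 and 1307 CPM (control livers 1 and 2), 818 and 906 CPM (KAP1-deleted livers), and 1395 and 1452 CPM (tumours). The tumours lay above every liver, with a log2 fold change of 0.72 ± 0.32 over KAP1-deleted liver (edgeR adjusted p = 0.18). Gsta1 was at 0.664 and 4.43 CPM (control livers), 1.82 and 1.95 CPM (KAP1-deleted livers), and 30.7 and 10.5 CPM (tumours 1 and 2). Its log2 fold change was 3.45 ± 0.97 (edgeR adjusted p = 0.0876). It was called in 8 of 15 alternatives, among them the mouse as a block (0.0148), DESeq2 (0.016) and the 4 libraries alone (0.0472). Against control liver it was called with DESeq2 (adjusted p = 0.0421) and without the filter on low counts (edgeR adjusted p = 4.6e-25). Only 7.14% of its 31-base words are found in no other gene, with 80.3% shared with Gm3776, so its own level is uncertain. Gsta2, at 39.9 and 12.6 CPM (tumours) against 4.86 and 9.77 CPM (KAP1-deleted livers), was not called (1.85 ± 0.72, edgeR adjusted p = 0.167). It was called in 2 of 15 alternatives, without the filter on low counts (edgeR adjusted p = 3.3e-12) and without tumour 2 (log2 fold change 2.45). Of the 31-base words of Gsta2, 39.3% occur in no other gene and 44.7% also occur in Gsta1, so its own level is uncertain as well. Gsta4, which acts on 4-hydroxynonenal, was at 8.11 and 26.9 CPM (control livers), 13.1 and 23.2 CPM (KAP1-deleted livers) and 44.3 and 43.1 CPM (tumours), with a log2 fold change of 1.27 ± 0.58 (edgeR adjusted p = 0.216). It was called in 5 of 15 alternatives, among them the block (0.002). Gsta4 was not called against control liver (1.31 ± 0.58, edgeR adjusted p = 0.199). It was called there with DESeq2 (adjusted p = 0.045), without the filter (edgeR adjusted p = 5.4e-07) and without control liver 2 (log2 fold change 2.43).

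Pi-class genes were not called in tumours. Gstp1 was at 152 and 104.5 CPM (tumours 1 and 2), overlapping KAP1-deleted liver (log2 fold change 0.17 ± 0.23, edgeR adjusted p = 0.674) and below both controls (-0.44 ± 0.23, edgeR adjusted p = 0.248). In the theta class the genes went in different directions. Gstt2 was at 48.7 and 48.2 CPM (KAP1-deleted livers) and 109 and 62.4 CPM (tumours), with a log2 fold change of 0.82 ± 0.26 (edgeR adjusted p = 0.0787). It was called in 5 of 15 alternatives, among them the block (0.0262). Gstt3 fell to 6.27 and 9.2 CPM in tumours from 33.8 and 53.2 CPM in the livers of the same mice when the mouse was a block (edgeR adjusted p = 1.7e-06), but was not called by the test used throughout (-2.49 ± 0.74, edgeR adjusted p = 0.0967). It was also called lower in 5 other alternatives, with DESeq2 (adjusted p = 0.0376), with the 4 libraries alone (0.00487), without control liver 1 or 2 (0.00405 and 0.00413) and without the filter on low counts (5.7e-23). Against control liver it was called lower without control liver 1 (edgeR adjusted p = 0.0131). In control liver 1 it was at 6.90 CPM, within the range of the tumours. Gstt1 was at 113 and 117 CPM (tumours), against 119 and 171 CPM (KAP1-deleted livers), with a log2 fold change of -0.34 ± 0.45 (edgeR adjusted p = 0.663). Against control liver it was called lower without control liver 1 (edgeR adjusted p = 0.0446).

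Gsto1, the omega-class enzyme, had the largest fall among called members. It was at 34.3 and 40.8 CPM (control livers), 34 and 35.6 CPM (KAP1-deleted livers), and 3.13 and 8.07 CPM (tumours 1 and 2). The 4 livers lay within a narrow band that neither tumour reached. The log2 fold change was -2.64 ± 0.41 against KAP1-deleted liver and -2.75 ± 0.41 against control liver (edgeR adjusted p 0.0108 and 0.00779). The call was lost without KAP1-deleted liver 1 or 2 in the first comparison (edgeR adjusted p 0.0549 and 0.0643) and without control liver 2 in the second (0.0846).

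Gstk1, the kappa-class enzyme of mitochondria and peroxisomes, was at 49 and 89.6 CPM (control livers), 49 and 68.4 CPM (KAP1-deleted livers), and 17 and 25 CPM (tumours). Its log2 fold change was -1.48 ± 0.33 and -1.72 ± 0.33 against KAP1-deleted and control liver (edgeR adjusted p 0.0297 and 0.0161). The first call was lost with library totals in place of TMM (edgeR adjusted p = 0.0662), without KAP1-deleted liver 2 (0.144), tumour 1 (0.162) or tumour 2 (0.0647), and the second without tumour 1 (0.102). Gstz1, the zeta-class maleylacetoacetate isomerase of tyrosine breakdown, was at 466 and 617 CPM (control livers), 457 and 528 CPM (KAP1-deleted livers), and 297 and 286 CPM (tumours). It was called lower against control liver (-0.89 ± 0.23, edgeR adjusted p = 0.0385) and not against KAP1-deleted liver (-0.76 ± 0.23, edgeR adjusted p = 0.0702), though it was called in 6 of 15 alternatives of the latter, among them the block (0.0438). The call against control liver was lost in 7 of 14 alternatives, with an adjusted p of up to 0.23 with library totals, 0.13 without control liver 2, 0.0741 and 0.0716 without KAP1-deleted livers 1 and 2, and 0.137 and 0.148 without tumours 1 and 2.

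Mgst1, a membrane-bound enzyme of the endoplasmic reticulum and mitochondria, had the highest level of the 38 genes per kilobase of exon in each group, with a mean of 1874 CPM per kilobase in control liver, 1521 in KAP1-deleted liver and 1210 in tumour. It was at 4069 and 3475 CPM (control livers), 2698 and 3427 CPM (KAP1-deleted livers), and 2772 and 2101 CPM (tumours). The log2 fold change of tumour against control liver was -0.63 ± 0.29 (edgeR adjusted p = 0.195). Mgst3 was at 2.63 CPM in control liver 1 and 8.36 to 17 CPM in the other 5 libraries. Its log2 fold change of tumour against control liver was 0.85 ± 0.69 (edgeR adjusted p = 0.473), but 2.43 without control liver 2, where it was called (0.00469), and it was called without the filter on low counts (0.00709).

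None of the 4 enzymes that make and recycle glutathione was called between tumour and KAP1-deleted liver. Gclc, the catalytic subunit of glutamate-cysteine ligase and the rate-limiting step, was at 126 and 261 CPM (control livers), 195 and 206 CPM (KAP1-deleted livers), and 259 and 187 CPM (tumours), with a log2 fold change over KAP1-deleted liver of 0.15 ± 0.34 (edgeR adjusted p = 0.795). Gclm was at 206 and 183 CPM (tumours), with a log2 fold change of 0.01 ± 0.18 (edgeR adjusted p = 0.965). Gss, glutathione synthetase, was at 58 and 43.2 CPM (tumours) against 44.5 and 40.5 CPM (KAP1-deleted livers), with a log2 fold change of 0.25 ± 0.21 (edgeR adjusted p = 0.457). Gsr, glutathione reductase, was higher in both tumours, at 91.3 and 67.4 CPM, than in any liver (52.5 to 65 CPM), without a call against KAP1-deleted liver (0.34 ± 0.19, edgeR adjusted p = 0.278) or control liver (0.59 ± 0.19, edgeR adjusted p = 0.0823). Against control liver Gsr was called with DESeq2 (adjusted p = 0.0437). With library totals Gsr and Gss were called higher against KAP1-deleted liver (edgeR adjusted p 0.0216 and 0.039) and control liver (0.0114 and 0.0264). The peroxidases Gpx1 and Gpx4, which use glutathione to reduce hydrogen peroxide and lipid peroxides, had log2 fold changes of -0.56 ± 0.35 and -0.46 ± 0.25 against KAP1-deleted liver (edgeR adjusted p 0.33 and 0.27). The sign of the Gpx4 value turned to 0.08 with library totals.

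Neither transcript of the NRF2 switch was called in a comparison. Nfe2l2 was at 48.6 and 59.4 CPM (control livers), 58.1 and 55.2 CPM (KAP1-deleted livers), and 64.4 and 60.7 CPM (tumours), with a log2 fold change over KAP1-deleted liver of 0.14 ± 0.17 (edgeR adjusted p = 0.623). It was called higher with library totals in place of TMM (edgeR adjusted p = 0.0383 against KAP1-deleted and 0.0395 against control liver), a scaling that moved the median of all genes by more than the 0.14 measured here. Keap1 was at 19.3 and 23.9 CPM (control livers), 21.4 and 22.5 CPM (KAP1-deleted livers), and 19.9 and 16.4 CPM (tumours). Its log2 fold change over KAP1-deleted liver was -0.28 ± 0.19 (edgeR adjusted p = 0.366). Across the alternatives that value ran from -0.42 to 0.26, so its sign depended on the setting. Transcript levels do not report the amount or location of NRF2 protein.

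Targets of NRF2 outside the GST family were mixed. Srxn1, the sulfiredoxin that repairs oxidised peroxiredoxins, was at 32.2 and 38.6 CPM (control livers), 28.5 and 30.7 CPM (KAP1-deleted livers), and 81 and 44.7 CPM (tumours). Both tumours were above all livers, and it rose 2.13-fold over KAP1-deleted liver (log2 fold change 1.09 ± 0.28, edgeR adjusted p = 0.0421). That call was lost without KAP1-deleted liver 1 or 2 (log2 fold change 1.04 and 1.14) or tumour 1 (0.60). Against control liver Srxn1 was not called (log2 fold change 0.83 ± 0.27, edgeR adjusted p = 0.0845). It was called there with DESeq2 (adjusted p = 0.0426), library totals (edgeR adjusted p = 0.0165), no filter on low counts (0.00401) and without tumour 2 (log2 fold change 1.19).

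Ugdh makes the UDP-glucuronic acid used by glucuronosyltransferases. It was at 91.1 and 125 CPM (control livers), 122 and 134 CPM (KAP1-deleted livers), and 42.7 and 38.8 CPM (tumours). Both tumours were below all 4 livers. It fell 3.13-fold against KAP1-deleted liver (log2 fold change -1.65 ± 0.21, edgeR adjusted p = 0.00416) and 2.65-fold against control liver (-1.41 ± 0.21, edgeR adjusted p = 0.00559). Both calls were present in each of the alternatives, 15 for the first comparison and 14 for the second.

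For Nqo1, Ces1g and Slc7a11 the gap between the tumours (3.79-, 3.53- and 20.9-fold) was wider than the fitted difference from KAP1-deleted liver (3.45-, 1.6- and 10.05-fold). Nqo1, the quinone reductase often read as a marker of NRF2 activity, was at 31.2 CPM in tumour 1 and 8.25 CPM in tumour 2, against 5.52 and 5.93 CPM (KAP1-deleted livers) and 4.91 and 8.5 CPM (control livers). Tumour 1 alone was above both controls, and the log2 fold change over KAP1-deleted liver was 1.79 ± 0.64 (edgeR adjusted p = 0.138). Nqo1 was called with DESeq2 (adjusted p = 0.00724), without the filter on low counts (edgeR adjusted p = 6.3e-11) and without tumour 2 (log2 fold change 2.45). Against control liver (1.55 ± 0.64, edgeR adjusted p = 0.173) it was called in the same settings (DESeq2 adjusted p = 0.0244). Ces1g, a carboxylesterase of hepatocytes, was at 293 and 83 CPM (tumours 1 and 2) and 118 and 117 CPM (KAP1-deleted livers), with a log2 fold change of 0.68 ± 0.76 (edgeR adjusted p = 0.602). Slc7a11, the cystine importer that supplies cysteine for glutathione, went the other way. It was at 0.525 CPM in tumour 1 and 10.9 CPM in tumour 2, and at 0.341 to 0.832 CPM in the 4 livers (log2 fold change over KAP1-deleted liver 3.33 ± 1.45, edgeR adjusted p = 0.209; 0.0115 without tumour 1). Without tumour 2 the value turned to -0.11. Markers of other cell types also differed between these tumours. Summed over 6 bile duct markers they were 3.05 and 22 CPM (15.5 to 34.5 CPM in livers), and over 6 pancreatic markers 9.85 and 38.4 CPM, nearly all of it Cela1 in tumour 2. In livers the pancreatic sum was 5.13 to 28.7 CPM, highest in KAP1-deleted liver 2, where Ctrb1 (5.95 CPM), Pnlip (3.77 CPM), Cpa1 (3.43 CPM) and Cel (3.43 CPM) stood far above the other 5 libraries. Their part was not tested.

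Ephx1, the microsomal epoxide hydrolase, was at 106 and 202 CPM (control livers), 134 and 205 CPM (KAP1-deleted livers), and 404 and 265 CPM (tumours). The tumours lay above all livers, but the gene was not called (log2 fold change over KAP1-deleted liver 0.98 ± 0.37, edgeR adjusted p = 0.125). It was called higher with DESeq2 (adjusted p = 0.049), library totals (0.0296) and no filter on low counts (0.0014). Against control liver (1.12 ± 0.37, edgeR adjusted p = 0.0846) it was called with DESeq2 (0.022), library totals (0.0268), no filter (1.9e-04) and without control liver 2 (0.0428). Hmox1, heme oxygenase, was at 14.2 and 22.9 CPM (tumours) against 13.3 and 12.6 CPM (KAP1-deleted livers), with a log2 fold change of 0.52 ± 0.27 (edgeR adjusted p = 0.249). Txnrd1, the cytosolic thioredoxin reductase, was at 112 and 80.1 CPM (tumours) and 94.5 to 99.1 CPM in the 4 livers (0.01 ± 0.20, edgeR adjusted p = 0.981).

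**Figure D4:**
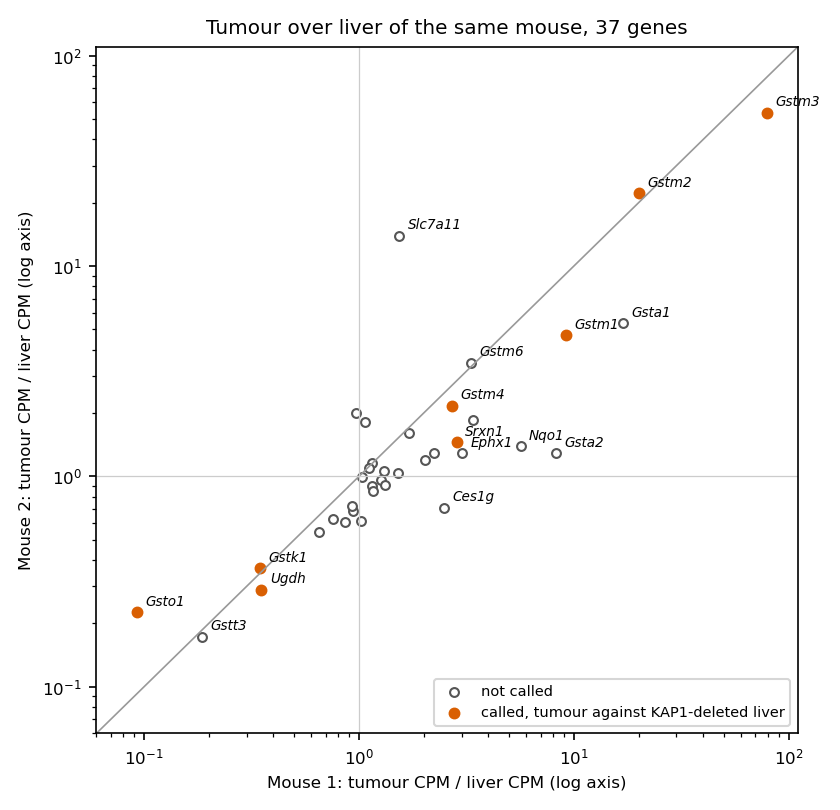
Ratio of tumour CPM to liver CPM in mouse 1 (horizontal) and mouse 2 (vertical) for the 37 tested genes, both on log axes, with equal ratios on the diagonal and called genes filled. Gstm2 (20.1 and 22.3) and Gstm3 (79.1 and 53.6) lie far up the diagonal, Gsta2 (8.22 and 1.29) and Nqo1 (5.66 and 1.39) below it, and Slc7a11 (1.54 and 14) above it.

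Set against the liver of the same mouse, the ratio of tumour to liver was 79.1 and 53.6 for Gstm3 and 20.1 and 22.3 for Gstm2 in mice 1 and 2. For Gsto1 it was 0.0923 and 0.227, and for Ugdh 0.352 and 0.289. Against these, Gsta2 had 8.22 and 1.29, Ces1g 2.49 and 0.711, and Slc7a11 1.54 and 14. Between the tumours 6 of 37 members differed at least 2-fold (16.2%, against 9.38% of all genes). Between the control livers 12 did (32.4%, against 11.3%), and between the KAP1-deleted livers 3 did (8.11%, against 6.46%). The members of the list thus varied most between the control mice.

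A further 89 genes of glutathione use, thiol redox control and NRF2 response, none of them among the 38, were listed from general knowledge. Earlier results of these data were known when they were listed, so the shares below are not independent of these data. Of 84 tested, 0 were called between KAP1-deleted and control liver by edgeR, while DESeq2 called 1, lower. In tumours 9 rose against KAP1-deleted liver (10.7%, against 4.8% of all genes) and 12 fell (14.3%, against 6.64%), with a median log2 fold change of -0.24. Against control liver 9 rose (10.7%, against 6.15%) and 14 fell (16.7%, against 7.76%). With single libraries left out the numbers against KAP1-deleted liver ranged from 2 to 10 higher and 3 to 19 lower, and those against control liver from 5 to 9 and 2 to 23. With library totals they were 26 and 6, and 22 and 6.

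Those with the smallest adjusted p were of several kinds. Cbs, which feeds homocysteine into cysteine synthesis, fell from 118 and 128 CPM in KAP1-deleted livers to 47.1 and 49.9 CPM (tumours), with a log2 fold change of -1.35 ± 0.17 (edgeR adjusted p = 0.00417). Blvrb, biliverdin reductase B, rose from 51.1 and 67.2 to 213 and 160 CPM (1.66 ± 0.25, edgeR adjusted p = 0.00736). Glrx5, a mitochondrial glutaredoxin of iron-sulfur assembly, fell (-1.60 ± 0.22, edgeR adjusted p = 0.00554), as did Ggt5, a gamma-glutamyl transferase (-2.36 ± 0.33, edgeR adjusted p = 0.00616). Gpx3, the secreted peroxidase, fell (-2.09 ± 0.34, edgeR adjusted p = 0.0101; 0.0529 and 0.0514 without tumours 1 and 2). Glrx, the cytosolic glutaredoxin, rose (1.01 ± 0.17, edgeR adjusted p = 0.0105). That call was lost without KAP1-deleted liver 1 or 2 or tumour 1 (log2 fold change 1.04, 0.98 and 0.92). Glrx was at 31 and 27.4 CPM (control livers), 18.4 and 17.7 CPM (KAP1-deleted livers), and 38.6 and 34.2 CPM (tumours). It was not called against control liver (0.32 ± 0.17, edgeR adjusted p = 0.243). Against control liver the short list added Prdx3, the mitochondrial peroxiredoxin, at 87.6 and 108 CPM in controls and 240.4 and 220.2 CPM (tumours), with a log2 fold change of 1.24 ± 0.19 (edgeR adjusted p = 0.00662), and Aox1, aldehyde oxidase (1.85 ± 0.29, edgeR adjusted p = 0.00759).

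The pumps that export glutathione conjugates were looked at after their values were seen. Of the listed Abcc genes, Abcc1 and Abcc5 were not called in tumours. Their log2 fold changes over KAP1-deleted liver were 0.36 ± 0.27 and 0.57 ± 0.25 (edgeR adjusted p 0.407 and 0.178). Against control liver the edgeR adjusted p was 0.631 and 0.21. Abcc2, the canalicular pump, was at 615 and 580 CPM (KAP1-deleted livers) and 1520 and 1291 CPM (tumours), with a log2 fold change of 1.24 ± 0.24 (edgeR adjusted p = 0.0186; 0.108 and 0.161 without KAP1-deleted livers 1 and 2, and 0.0818 without tumour 1). Abcc4, a basolateral pump, was at 4.27 and 4.98 CPM (KAP1-deleted livers) and 67.3 and 20.6 CPM (tumours), with a log2 fold change of 3.25 ± 0.56 (edgeR adjusted p = 0.0194). Its call was lost with the mouse as a block (edgeR adjusted p = 0.152), with the 4 libraries alone (0.0958), without control livers 1 and 2 (0.0941 and 0.0947) and without KAP1-deleted livers 1 and 2 (0.175 and 0.198). Abcc3, another basolateral pump, was at 71 and 163 CPM (KAP1-deleted livers) and 10.5 and 29.5 CPM (tumours), which was not called (-2.55 ± 0.71, edgeR adjusted p = 0.0809). Against control livers, at 150 and 307 CPM, it was called lower (-3.52 ± 0.74, edgeR adjusted p = 0.0364). That call was lost with the 4 libraries alone (edgeR adjusted p = 0.0665), without control livers 1 and 2 (0.0993 and 0.231), without KAP1-deleted livers 1 and 2 (0.0663 and 0.0686) and without tumour 1 (0.0594).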

How the data were processed

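RNA was measured by stranded TruSeq sequencing of total RNA from 6 liver or tumour samples, per the labels' protocols. The deposited values are counts of reads per Ensembl gene, made on mm9 with HTSeq 0.6.1 after TopHat, per the submitters' processing notes. For the TopHat version, annotation and strand setting: not given in the sources used here. Entries naming no gene were left out. They held 20.9% to 27.6% of counted reads in livers, and 36.7% and 33.1% in tumours 1 and 2. The TMM factors were 0.864 to 0.948 in livers, and 1.31 and 1.22 in tumours 1 and 2. The part of the higher share of such entries in the tumour comparisons was not tested. Symbols, exon lengths and shared 31-base words came from the GRCm38 reference, and promoters from RefSeq GRCm38.p6, so no coordinates of the counts are given.

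The test was that of edgeR 4.0.16 (R 4.3.3): filterByExpr by group (minimum count 10, minimum total 15), TMM scaling, 1 mean per group over all 6 libraries, robust quasi-likelihood fit with 3 residual degrees of freedom, and Benjamini-Hochberg adjustment over 17558 genes. The SE is the log2 fold change over the square root of F. The fit was tested on simulated data. Alternatives were DESeq2 1.42.0, limma-voom (limma 3.58.1), 3 other scalings, 2 other filters, the 4 libraries compared alone, each library left out, and the mouse as a block. Mouse codes pair tumour and KAP1-deleted liver, whose deviations from their group means correlated at r = 0.185 across genes.

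All 38 genes are named, with full values for those called in a comparison and for Nfe2l2 and Keap1. Up to 6 further pathway genes per comparison are named by smallest adjusted p, and the Abcc pumps besides. Some results are not reported here. The members and lists were chosen with earlier results of these data known. All libraries carry 1 batch label. By the mouse codes the 2 libraries of a group came from different mice, so the spread within a group includes that between animals.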

Additional observations from a re-analysis of the deposited data

How the results depend on the processing

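With 2 libraries per group, the counts of called genes moved with the settings, while the direction of every called member held in each alternative. In tumour against KAP1-deleted liver, members called higher and lower were 15 and 5 without a filter on low counts, 8 and 5 with the 4 libraries alone, 10 and 5 with DESeq2, and 9 and 5 with the mouse as a replicate block. Library totals gave 14 higher, with a median log2 fold change of 0.89. Gstm5, Gsta3, Gss, Gsr, Hmox1 and Nfe2l2 were called higher in that comparison by no other alternative. Without the filter, adjusted p values could fall far at nearly the same log2 fold change. For Slc7a11, with tumours 20.9-fold apart, the edgeR adjusted p was 5.5e-18, against 0.209 with the filter, at 3.33 in both. A call gained only without the filter thus carries little weight. That setting is among the alternatives counted above, and the cause was not tested. All genes called were 4317 and 520 with library totals, 1215 and 1482 with the 4 libraries alone, and 1571 and 2318 with the block. They were 1217 and 1537 with DESeq2 and 1563 and 2256 without the filter. At a mean CPM of at least 5 they were 485 and 743, out of 9245 genes. DESeq2 and the 2 other filters test other numbers of genes than 17558, so their counts cannot be compared as shares. In tumour against control liver, members called higher were 10 with library totals, 15 without the filter and 10 with DESeq2, and library totals gave a median of 0.79. All genes called there were 3962 and 626, 1801 and 2314, and 556 and 876 with library totals, without the filter and at the CPM minimum, and 1420 and 1668 with DESeq2. In KAP1-deleted against control liver, 1 member was called higher without the filter. All genes called there were 354 and 217 without the filter, 13 and 4 at the CPM minimum, 20 and 8 with the 4 libraries alone, 148 and 76 with DESeq2, and 26 higher with limma-voom.

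Leaving out 1 library at a time, where the lone library of a group is assumed to vary like the other groups, gave 0 to 9 members higher and 1 to 5 lower in tumour against KAP1-deleted liver (all genes 291 to 1188 and 262 to 1696, median 0.11 to 0.40). Against control liver it gave 3 to 8 and 2 to 6 (all genes 635 to 1099 and 432 to 1628, median 0.10 to 0.61). Between KAP1-deleted and control liver all genes called were 19 to 47 and 6 to 19, and the median was -0.38 to 0.30. The cause of these changes was not tested.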
